A study of Mus musculus with 12 samples.

Results

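Apoptosis genes were followed through a fast in mouse liver, with death-associated protein kinase 1 (Dapk1) as the member that differed most from the fed level at 72 hours. Members were probes chosen by their gene name in the scanner files. The names were those of the caspases, the Bcl-2 family, the inhibitors of apoptosis, the apoptosome and the DNA fragmentation factors. They were also those of the tumour necrosis factor receptors and ligands with their adaptors, p53 with its partners, the programmed-cell-death genes and the death-associated kinases. Another list gave 12 probes by their number, all of which the names had already found. This gave 83 of the 20280 probes, for 66 current gene symbols. One of them, Bmp2k, is a kinase that the name pattern took in without being an apoptosis gene, and it stays in the counts.

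All mice were male FVB mice of 6 weeks, without transgene or drug. The fed group kept its chow, and the 12h, 24h and 72h groups had chow withdrawn for 12, 24 or 72 hours. Metabolic cages were used, with an infrared lamp for warmth from 24 hours on. Each group had 3 arrays, and each array carried Cy3-labelled RNA pooled from 2 livers beside a Cy5-labelled reference of 6 fed livers that was common to all arrays. Values are log2 ratios of sample over reference, so that 0 is the level of the fed reference and 1 is a doubling. By the liver numbers in the labels, the reference is made of the same 6 livers as the 3 fed pools. Pools hide the spread between mice. In whole-liver RNA, fewer cells of a type and less RNA per cell cannot be told apart.

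Apoptosis can start at the cell surface, where ligands of the tumour necrosis factor family engage death receptors that recruit adaptors and the initiator caspase 8, or at mitochondria, where Bax and Bak1 release cytochrome c, which assembles with Apaf1 and caspase 9. Both routes end in the executioner caspases and are held back by Bcl-2-like proteins and the inhibitors of apoptosis. Hepatocytes join the routes through Bid, which caspase 8 cleaves. Most of these proteins are controlled by cleavage and binding, so that a transcript level does not give their activity. Dapk1 is a calcium- and calmodulin-regulated serine/threonine kinase known from cell death and autophagy.

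Hepatocyte markers were bright on every array: 4 of 8 listed markers had probes, and all 5 of these probes were well above background on all 12 arrays. Median sample signal over local background ran from 3.50 to 10.6 between arrays and was lowest on replicate 3 of the 24h group (3.50) and replicate 2 of the 12h group (4.72), called the low-signal arrays here. On the latter, 33 of 80 measured members lay more than 1 log2 unit from the reference, against 0 to 8 members on every other array, and 34.5% of all probes did so. Where the other arrays of the 12h group lay on one side of the fed mean, which held for 63 members, the low-signal array lay on the opposite side for 44, against 62.3% of all such probes. In the 24h group this was so for 39 of 58 members, against 63.4% of all such probes. Leaving out both low-signal arrays turned the sign of the log2 fold change of 38 of 83 members at 12 hours, 24 at 24 hours and 0 at 72 hours, against 40.1%, 25.3% and 0% of all probes. The 12h and 24h arrays that remain share no quantification day with a fed array, so that in values without the low-signal arrays the day and the fasting time cannot be told apart. The low-signal arrays share their day with fed replicate 1 and with no other fasted array, so for them low signal and day cannot be told apart. The dimmer of them, in the 24h group, had the narrower interquartile range of the members (0.73 against 1.42).

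**Figure D1:**
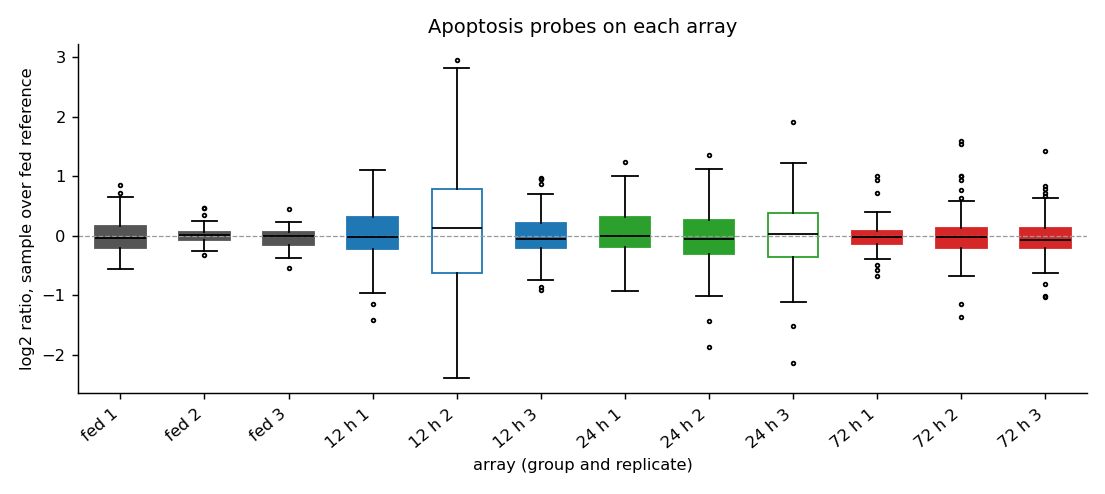
Log2 ratio of sample over fed reference (vertical axis) for the apoptosis probes on each of the 12 arrays (horizontal axis). Boxes span the quartiles with the median as a line, whiskers reach 1.5 times the box, points lie beyond, and white boxes are the low-signal arrays. The box of 12h replicate 2 is the widest, with an interquartile range of 1.42 against 0.13 to 0.73 on the other arrays.

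Dapk1 was measured by 1 probe, which 9 of the scanner files name Dapk1 and the other 3 name 2810425C21Rik. This probe was well above background on all 12 arrays. Its log2 ratios were -0.06, 0.02 and -0.23 on the fed arrays, 0.87, -0.61 and 0.95 at 12 hours, 1.23, 1.07 and -0.18 at 24 hours, and 0.95, 1.59 and 1.43 at 72 hours. The 72h arrays all lay above the fed arrays, while at 12 and 24 hours the arrays other than the low-signal ones did so. The low-signal array lay below the fed arrays at 12 hours and within their range at 24 hours. Mean log2 ratios were -0.09 ± 0.13 (SD, n = 3) in fed liver, 0.40 ± 0.88 at 12 hours, 0.71 ± 0.78 at 24 hours and 1.32 ± 0.34 at 72 hours. Against fed, limma gave a 2.66-fold higher level at 72 hours (log2 fold change 1.41, 95% interval 0.42 to 2.40, unadjusted p = 0.00947), with an adjusted p of 1.00 over the 20081 probes tested. The differences at 12 hours (0.49, interval -0.50 to 1.48) and 24 hours (0.79, interval -0.19 to 1.78) did not pass either (adjusted p = 0.956 and 1.00 with limma), nor did 72 against 24 hours (0.62).

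Leaving out both low-signal arrays brought Dapk1 past the threshold, an adjusted p under 0.05 and at least 1.4-fold, at each time. Its log2 fold changes were then 1.00 at 12 hours, 1.24 at 24 hours and 1.41 at 72 hours (limma, adjusted p = 0.0239, 0.00596 and 0.00349). With limma's array weights, which lower the weight of arrays whose probes scatter, they were 0.92, 1.202 and 1.45 (adjusted p = 0.00205, 0.000605 and 0.000187). Dapk1 was the only member that passed in both of these fits in all 3 comparisons with fed. Both fits discount the low-signal arrays and the comparisons share the fed arrays, so these passes are not separate support. The share of all probes that passed in this way is not given here. Arrays were quantified on 3 days, and the 72h arrays share theirs with fed replicates 2 and 3, within which the difference at 72 hours was 1.43 (limma, adjusted p = 0.0999). With the day as a block, which at 12 and 24 hours rests on fed replicate 1 and the low-signal arrays, Dapk1 read -0.49 and -0.19 (limma, adjusted p = 0.207 and 0.678).

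The 2 channels contributed unequally to the Dapk1 ratio. In the sample channel alone, after quantile normalization, its log2 levels were 9.49, 8.67 and 8.31 on the fed arrays and 9.55, 10.04 and 9.20 on the 72h arrays, and these ranges overlapped. In the reference channel, which carried the same RNA on every array, they were 9.54, 8.65 and 8.54 on the fed arrays and 8.61, 8.45 and 7.77 on the 72h arrays. The 72h minus fed difference was thus 0.78 in the sample channel and -0.63 in the reference channel, and the ratio's 1.41 is made up of both. At 24 hours the sample channel was 0.95 higher than in fed and the reference channel 0.16 higher. Over all members, the median absolute reference-channel difference between 72h and fed arrays was 0.22, and over all probes 0.21.

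**Figure D2:**
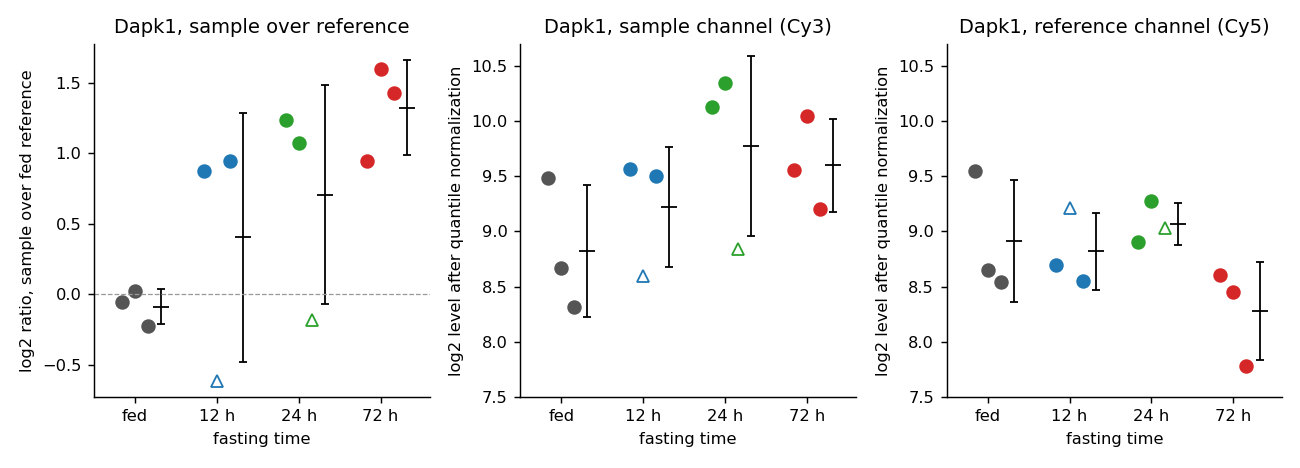
Dapk1 on each array by fasting time: log2 ratio of sample over fed reference (left), log2 level in the sample channel (middle) and in the reference channel (right). Points are arrays, open triangles the low-signal arrays, and bars the mean ± SD of 3 arrays. The ratios of the 72h arrays (0.95 to 1.59) lie above those of the fed arrays (-0.23 to 0.02), and the reference level is lowest on a 72h array (7.77).

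The 5 other probes whose log2 ratios followed Dapk1 most closely over the 12 arrays, of 11108 probes with 12 values, are given as a description, since all share the arrays and their scatter. They were Npm1, the nucleolar chaperone nucleophosmin (Pearson's r = 0.98), Slc38a4, an amino-acid transporter (0.98), an expressed sequence tag without a gene name (0.97), Ppip5k2, an inositol phosphate kinase (0.96), and Gata6, a transcription factor (0.96). Slc38a4 lay at 0.35, 0.47 and -0.09 on the fed arrays and at 1.38, 2.08 and 1.57 on the 72h arrays. Like Dapk1, it was lower on the low-signal arrays (-0.40 and 0.10) than on the other arrays of their groups (1.49 to 1.62).

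Over all 83 members, the shares that differed from fed liver lay near those of all probes. With limma, 0 of 83 members passed the threshold at 12, 24 or 72 hours, where 0.00995%, 0.00497% and 0.00996% of all probes did. For 72 against 24 hours 0 of 83 passed, against 0% of all probes. At an unadjusted p under 0.05 the numbers were 3, 0 and 1 against fed, and 0 for 72 against 24 hours, where 3.89%, 3.06%, 1.56% and 3.41% of all probes had such a p. Whatever the p, 14, 6 and 8 members differed from fed by at least 1.4-fold (16.9%, 7.23% and 9.64% of them), against 15.1%, 8.06% and 6.73% of all probes. For 72 against 24 hours 11 members did (13.3%), against 10.4% of all probes. In the same order, 46, 46, 39 and 38 of the 83 members were higher, whatever the size, against 49.2%, 49.6%, 46.7% and 48.7% of all probes. The median log2 fold change of the members was 0.02, 0.02 and -0.01 at 12, 24 and 72 hours, and that of all probes tested was -0.01, -0.00 and -0.01.

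With array weights, 7, 8 and 4 members passed at 12, 24 and 72 hours, against 10.8%, 11.9% and 4.43% of all probes, which is 8.43%, 9.64% and 4.82% of the members. Without the low-signal arrays 3, 7 and 2 passed, against 2.84%, 9.44% and 0.841% of all probes, or 3.61%, 8.43% and 2.41% of the members. For 72 against 24 hours 1 member, Casp9, passed with array weights and 0 without the low-signal arrays, against 4.77% and 1.38% of all probes. The members that passed in both fits were Dapk1, Bcl2l11 and Casp1 at 12 hours, Dapk1, Traf4, Tnfrsf12a and Casp1 at 24 hours, and Dapk1 and Pdcd6ip at 72 hours. The share of all probes that passed in both fits is not given here, so these names are not read as a result about the members.

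**Figure D3:**
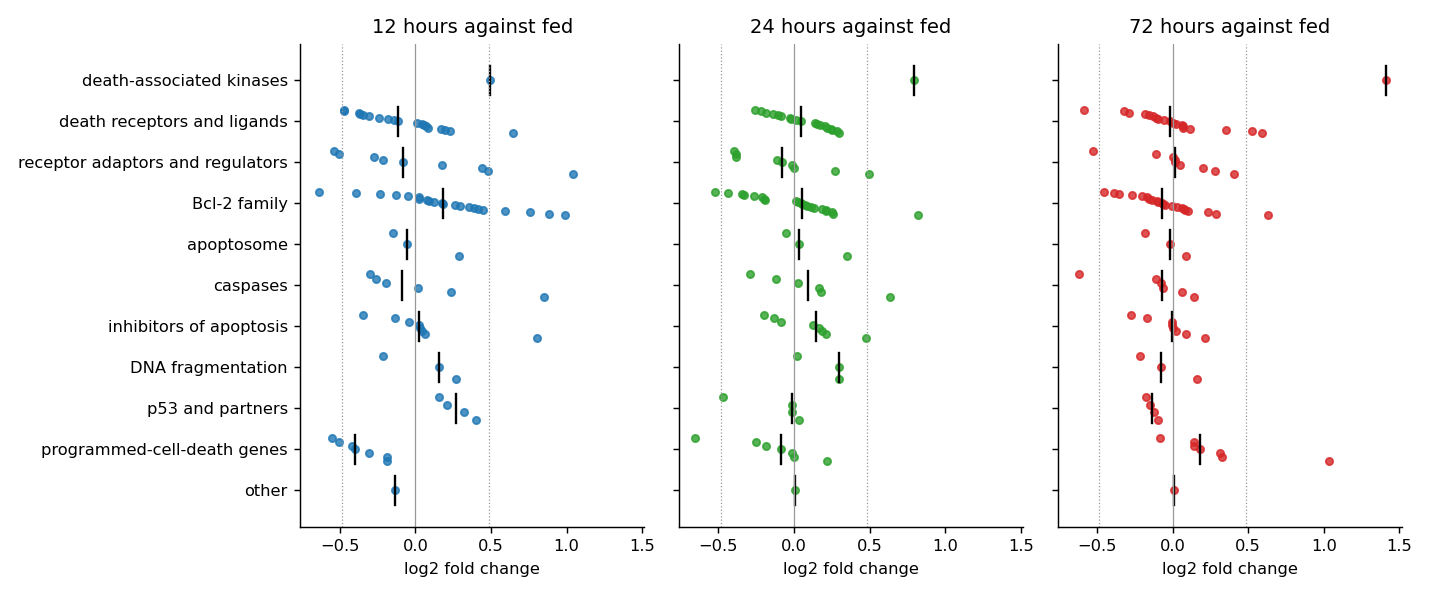
Log2 fold change against fed (horizontal axis) of each apoptosis probe by role (vertical axis) for the 12h, 24h and 72h groups. Points are probes, spread vertically within a role, short black lines the median of the role, and dotted lines a 1.4-fold change. Apart from Dapk1 at 1.41 and Pdcd6ip at 1.03 at 72 hours, the members lie between -0.62 and 0.63 there.

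The group of death receptors and ligands had 19 probes for 17 genes. It was drawn by gene name and also holds other receptors and ligands of the tumour necrosis factor family. At 12, 24 and 72 hours 9, 11 and 9 of the 19 probes were higher than in fed, with medians of -0.11, 0.05 and -0.01. None passed in the limma fit with all arrays. Tnfrsf1a, the main receptor for tumour necrosis factor, lay at 0.43, 0.23 and -0.29 on the fed arrays and at 0.35, 1.00 and 0.79 on the 72h arrays, with overlapping ranges (log2 fold change 0.59, adjusted p = 1.00 with limma). On the 12h arrays it read 1.06, -1.59 and 0.36, the low value coming from the low-signal array. Fas, the receptor for Fas ligand, kept a value on 1 fed array only after outlier spots were left out, and its log2 fold changes were -0.11, -0.22 and -0.10, with 0.30 and 0.23 at 12 and 24 hours without the low-signal arrays.

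Tnfsf13b, the B-cell survival factor BAFF, shows how far a low-signal array could move a value. It lay at -0.55, -0.25 and -0.20 on the fed arrays, at -1.15, 2.95 and -0.86 at 12 hours, and at -0.39, -1.36 and -1.02 at 72 hours. The 12-hour log2 fold change was 0.65 with all arrays, -0.67 without the low-signal arrays (adjusted p = 0.137) and -0.74 with array weights (adjusted p = 0.0236), and at 72 hours it was -0.59 and -0.81 (adjusted p = 1.00 and 0.0298, limma throughout). Tnfrsf12a, the receptor of the cytokine TWEAK, was represented by a pair of probes that differed from each other. One read 0.53 and the other -0.16 on the log2 scale for 72 hours against fed, and the second passed at 24 hours in both fits that discount the low-signal arrays (0.55 and 0.79, limma, adjusted p = 0.0478 and 0.0365), while all arrays gave 0.25.

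Receptor adaptors and regulators had 9 probes for 8 genes. Traf4, a TNF receptor-associated adaptor, had the highest 12-hour log2 fold change of the 83 members with all arrays, and lay below Dapk1 without the low-signal arrays. Its log2 ratios were 0.58, 0.00 and -0.19 on the fed arrays, 1.10, 1.54 and 0.87 at 12 hours, 0.72, 1.36 and -0.20 at 24 hours, and 0.28, 0.59 and 0.36 at 72 hours. The 12h arrays all lay above the fed arrays, and the 24h and 72h arrays overlapped them. Against fed, Traf4 was 2.06-fold higher at 12 hours (log2 fold change 1.04, interval 0.25 to 1.83, unadjusted p = 0.0146, adjusted p = 0.956 with limma). It was 0.50 and 0.28 higher on the log2 scale at 24 and 72 hours, and passed at 12 and 24 hours with array weights (1.01 and 0.79, limma, adjusted p = 0.00144 and 0.00442). Without the low-signal arrays Traf4 passed at 24 hours (0.91, adjusted p = 0.0375) and not at 12 hours (0.86, adjusted p = 0.0751). Its sample-channel difference at 12 hours was 0.87 and its reference-channel difference -0.17. Fadd, which links death receptors to caspase 8, had 1 fed value and differed from it by -0.54, -0.40 and -0.53 on the log2 scale, none passing. Ripk1, a kinase of the receptor complex, differed by -0.27, -0.01 and 0.00, and by 0.07 at 12 hours without the low-signal arrays.

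The Bcl-2 family was the largest group, with 22 probes for 16 genes. At 12, 24 and 72 hours 17, 14 and 8 probes were higher than in fed, with medians of 0.18, 0.05 and -0.07. At 12 and 24 hours 10 and 10 were higher without the low-signal arrays, with medians of -0.05 and -0.04. Bax, a pore-forming member, lay at 0.28, 0.12 and 0.07 on the fed arrays and at 0.02, -0.55 and -0.17 at 12 hours, so that the groups did not overlap. Its log2 fold change was -0.39 (unadjusted p = 0.0405, adjusted p = 0.956 with limma), and at 72 hours it was -0.00. In the sample channel alone the 12h minus fed difference of Bax was -0.00, and the reference channel was 0.39 higher on the 12h arrays. Its sample-channel levels were 8.27, 8.55 and 8.40 on the fed arrays and 8.66, 7.78 and 8.77 at 12 hours. The low value of 7.78 came from the low-signal array, and the other 12h arrays lay above the fed arrays. Bak1, its partner in pore formation, read 0.99 higher at 12 hours through 1 low-signal array at 2.81, beside 0.39 and 0.49 on the others and 0.85 on a fed array. Its 12-hour log2 fold change was 0.20 without the low-signal arrays.

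Bcl2l11, the cell-death activator Bim, read -0.47, -0.22 and -0.03 on the fed arrays, -0.95, 2.15 and -0.75 at 12 hours, -0.76, -0.62 and 1.22 at 24 hours, and -0.58, -0.67 and -0.54 at 72 hours. Every array of the fasted groups except the low-signal ones lay below the fed arrays. At 12 hours its log2 fold change was -0.65 with array weights and -0.61 without the low-signal arrays (limma, adjusted p = 0.0163 and 0.0473), while the fit with all arrays gave 0.39. The 72-hour log2 fold change was -0.36 (adjusted p = 1.00).

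Of the protective members, Bcl2 had log2 fold changes between -0.39 and 0.26 over its probes and times. Its probes read -0.16 and -0.37 at 12 hours without the low-signal arrays. The 3 probes of Bcl2l1, the gene of Bcl-xL, read 0.89, -0.23 and -0.13 at 12 hours (0.13, -0.04 and -0.46 without the low-signal arrays) and -0.15, 0.29 and 0.06 at 72 hours. Bad, Bid and Bok, which act against the protective members, lay between -0.52 and 0.35. The -0.52 of a Bad probe at 24 hours came from 1 array at -1.86, the others reading 0.14 and 0.19. The Bid probes are named Mil1 and not Bid in 3 of the scanner files, so that the annotations disagree on the gene name of these probes. Bnip3, a mitochondrial member of the family that also acts in mitophagy, differed by 0.60, 0.05 and 0.07, and by -0.21 at 12 hours without the low-signal arrays. Bnip3l, its relative, had one probe that lay at 0.55, 0.47 and 0.24 on the fed arrays and at 1.01, 1.53 and 0.61 on the 72h arrays, without overlap (log2 fold change 0.63, adjusted p = 1.00), and another that differed by 0.10. Bik, a cell-death activator, lay at -0.14, -0.20 and -0.03 in fed liver and at -0.27, -0.67 and -0.80 at 72 hours, also without overlap (-0.45, adjusted p = 1.00).

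Over all members with 3 values in both groups, 3 of 44, 6 of 49 and 8 of 46 did not overlap with fed at 12, 24 and 72 hours, the low-signal arrays included, against 12.7%, 11.5% and 18.9% of all probes. For 72 against 24 hours 10 of 71 did not overlap, against 15.0% of all probes. At 72 hours 6 of the 46 lay below fed without overlap, against 9.69% of all probes. Above fed without overlap lay 2 of the 46, Dapk1 and Bnip3l, against 9.22% of all probes.

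**Figure D4:**
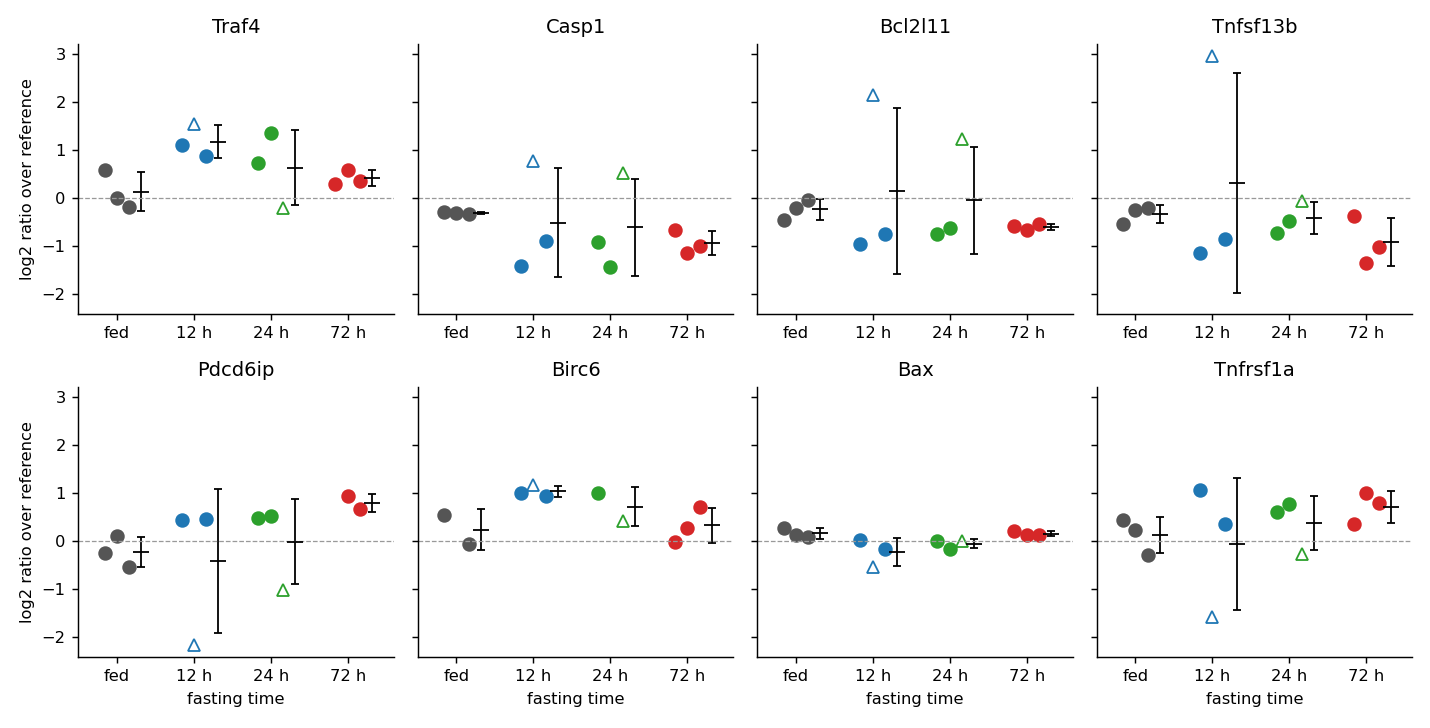
Log2 ratio of sample over fed reference (vertical axis) on each array by fasting time (horizontal axis) for 8 apoptosis probes. Points are arrays, open triangles the low-signal arrays, and bars the mean ± SD over the arrays with a value. Casp1 and Bcl2l11 lie below the fed arrays at 72 hours, Traf4 lies above them at 12 hours, and the triangles of Casp1, Bcl2l11, Tnfsf13b and Pdcd6ip at 12 hours lie on the other side of 0 from the filled points of their group.

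The apoptosome was represented by Apaf1 and Cycs. Apaf1, the scaffold, differed from fed by -0.18 to 0.03 over its pair of probes and the 3 times, and by 0.13 and -0.41 at 12 hours without the low-signal arrays. Cycs, which encodes cytochrome c of the respiratory chain, read -0.13, 0.25 and -0.22 on the fed arrays and 0.59, 0.84 and -0.47 at 24 hours. Its 24-hour log2 fold change was 0.35 with all arrays (adjusted p = 1.00) and 0.75 without the low-signal arrays (limma, adjusted p = 0.0428).

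Caspases had 6 probes for 5 genes. Casp1, which processes interleukin-1 in inflammation and is not an executioner of apoptosis, had the lowest 72-hour log2 fold change among the members. Its log2 ratios were -0.29, -0.32 and -0.34 on the fed arrays, -1.41, 0.77 and -0.90 at 12 hours, -0.92, -1.43 and 0.52 at 24 hours, and -0.67, -1.15 and -1.004 at 72 hours. The 72h arrays all lay below the fed arrays, as did every 12h and 24h array except the low-signal ones. The 72-hour difference corresponded to a 1.54-fold lower level (log2 fold change -0.62, interval -1.85 to 0.61, adjusted p = 1.00 with limma). With array weights Casp1 passed at 12, 24 and 72 hours (-0.86, -0.63 and -0.69, limma, adjusted p = 0.00565, 0.0233 and 0.0263). Without the low-signal arrays it passed at 12 and 24 hours (-0.84 and -0.86, limma, adjusted p = 0.0497 and 0.0255) and not at 72 hours (adjusted p = 0.136). The sample channel alone gave -0.32 at 72 hours.

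Casp1, Bcl2l11 and Tnfsf13b are also expressed by leukocytes. Of 10 listed markers of macrophages and leukocytes 5 had probes, of which 5 of 6 probes were well above background on all arrays. Their summed level in the sample channel, after normalization, was 8377 to 10403 in fed liver, 4050 to 7168 at 12 hours, 6041 to 7594 at 24 hours and 7530 to 8572 at 72 hours. The median log2 fold change of these 6 probes was -0.51, -0.39 and -0.27 at the 3 times, and 0 of them passed in the limma fit with all arrays. In that fit 4, 5 and 5 of the 6 were lower, by unequal amounts. Cd74 read -1.16, -0.86 and -1.43, while Csf1r read -0.26, -0.07 and -0.04 and Ptprc 0.13, 0.22 and 0.05. With array weights the medians were -0.17, -0.17 and -0.22, and 0, 1 and 2 of the 6 were lower and passed. Without the low-signal arrays they were -0.13, -0.19 and -0.27, and 0 passed. Their part in the lower values of Casp1, Bcl2l11 and Tnfsf13b was not tested.

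The other caspases described here differed less from fed at 72 hours than Casp1. Casp8 read between -0.08 and 0.23 on its probes with all arrays, and one of them, at 0.11, 0.06 and 0.07 on the fed arrays and 0.33, 0.33 and 0.27 at 12 hours, did not overlap with fed and was 1.18-fold higher (adjusted p = 0.956 with limma). Casp9 differed by 0.85, 0.64 and -0.06, with its highest values on the low-signal arrays (2.17 and 1.17), and passed at 24 hours with array weights (0.55, limma, adjusted p = 0.0159). Casp9 read 0.25 and 0.43 at 12 and 24 hours without the low-signal arrays. Casp6, an executioner caspase, differed by -0.26, 0.18 and 0.14, and without the low-signal arrays by 0.13 and 0.55 at 12 and 24 hours. The 95% interval of its log2 fold change at 72 hours was -0.68 to 0.96, so that a 1.4-fold difference in Casp6 was not detectable at this precision.

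Inhibitors of apoptosis had 8 probes for 5 genes, with medians of 0.03, 0.15 and -0.00 at 12, 24 and 72 hours, and of -0.07 and -0.01 at 12 and 24 hours without the low-signal arrays. Birc6, a large ubiquitin-conjugating inhibitor, had 3 probes that differed from each other. One read 0.54 and -0.07 on 2 fed arrays and 1.01, 1.17 and 0.95 at 12 hours, without overlap (log2 fold change 0.81, unadjusted p = 0.0225, adjusted p = 0.956 with limma), and passed at 12 and 24 hours with array weights (both 0.90, adjusted p = 0.0176 and 0.0197) but not without the low-signal arrays. The other Birc6 probes read between -0.13 and 0.03 at 12 hours, and the gene-name annotation of 3 of the scanner files gives no name to the probe that was higher. Birc5, the mitotic protein survivin, differed by -0.34 to -0.01 over its probes and times.

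DNA fragmentation factors had 3 probes. Dffb, the nuclease that cuts DNA between nucleosomes, differed by -0.22 to 0.30 over its probes and times. Dffa, its inhibitor, differed by 0.27, 0.29 and 0.16 from a single fed value. The gene-name annotation of 3 of the scanner files names the Dffa probe Fmr1, a different gene. p53 and its partners had 4 probes. Trp53 itself read 0.21, -0.01 and -0.17 on one probe and 0.32, -0.47 and -0.10 on the other, with -0.48 and -0.36 at 12 hours without the low-signal arrays. The second lay at 0.05, 0.03 and 0.16 on the fed arrays and at -0.25, -0.87 and -0.05 at 24 hours, without overlap, and passed without the low-signal arrays (log2 fold change -0.64, limma, adjusted p = 0.0471).

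Programmed-cell-death genes, named for their discovery rather than a shared role, had 7 probes for 7 genes. At 12 hours 0 of the 7 were higher than in fed (median -0.40), and at 72 hours 6 were (median 0.18). At 12 hours 5 were higher without the low-signal arrays (median 0.41). The lowest 12-hour values lay on the low-signal array, on which Pdcd6, a calcium-binding protein, read -2.38 beside 0.42 and 0.34 on the other arrays, Pdcd6ip -2.16 beside 0.44 and 0.47, and Aifm1, a mitochondrial flavoprotein, -1.90 beside 0.61 and 0.48. Without the low-signal arrays their log2 fold changes were 0.41, 0.68 and 0.51, none passing. Pdcd10, a component of signalling complexes at the Golgi, read -2.14 on the low-signal 24h array beside -0.10 and 0.45, and its 24-hour log2 fold change of -0.66 was 0.12 without that array and its 12h counterpart.

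Pdcd6ip, the membrane-remodelling protein ALIX, lay at -0.26, 0.10 and -0.53 on the fed arrays and at 0.93 and 0.67 on the 2 72h arrays with a value. The ranges did not overlap, and the level was 2.05-fold higher (log2 fold change 1.03, interval -0.64 to 2.70, adjusted p = 1.00 with limma). It passed at 72 hours with array weights (0.85, limma, adjusted p = 0.0236) and without the low-signal arrays (1.03, limma, adjusted p = 0.0325), and in the latter fit also at 24 hours (0.73, adjusted p = 0.0320). The sample channel alone gave 0.55.

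Probes of one gene can be set beside each other, though they share the arrays and their scatter. Some would also share a sign without any difference in the gene, so the counts of signs are a description. For the 15 genes with more than 1 member probe, all probes had the same sign in 9 genes at 12 hours, in 9 at 24 hours and in 9 at 72 hours. Their log2 fold changes spanned a median of 0.26, 0.20 and 0.17, and the widest spans were 1.395 for Bnip3l at 12 hours, 1.15 for Bcl2l1 at 24 hours and 0.68 for Tnfrsf12a at 72 hours. The median standard error of a member's log2 fold change was 0.33 at each time, which is above each of these median spans.

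Of 50 further genes of cell death and stress that the member rule did not take in, 37 had probes, 52 in all. In the limma fit with all arrays 0 of the 52 passed at any time. At 12, 24 and 72 hours 3, 1 and 3 had an unadjusted p under 0.05, against 3.89%, 3.06% and 1.56% of all probes. For 72 against 24 hours 0 passed and 5 had such a p, against 3.41% of all probes. With array weights, 3 were higher and 0 lower at 12 hours, 3 higher and 1 lower at 24 hours, and 5 higher and 0 lower at 72 hours, where 10.8%, 11.9% and 4.43% of all probes passed in either direction. Without the low-signal arrays 0 passed at 12 hours, and 3 higher and 2 lower at 24 hours, against 2.84% and 9.44% of all probes. At 72 hours 2 passed, against 0.841% of all probes: one of the pair of probes of Mcl1, a protective Bcl-2 relative (log2 fold change 1.64, limma, adjusted p = 0.0397, the other reading 0.33 with adjusted p = 0.400), and Nfkbia, the inhibitor of NF-kappa-B (1.10, limma, adjusted p = 0.0487). Cdkn1a, the cell-cycle inhibitor p21, was 2.44 higher on the log2 scale at 72 hours. It passed with array weights alone at 72 hours (2.40, limma, adjusted p = 0.0490) and at 12 hours (2.46, limma, adjusted p = 0.0236). Sesn1, a stress-induced regulator of growth, passed with array weights alone at 72 hours (2.11, limma, adjusted p = 0.0205). At 24 hours Bag3 (0.69 and 0.76) and a Ccng1 probe (0.63 and 0.84) passed higher in both fits, and Prf1 lower (-0.57 and -0.54). For 72 against 24 hours 1 passed higher and 2 lower with array weights, against 4.77% of all probes. In the same comparison 0 passed higher and 2 lower without the low-signal arrays, against 1.38%.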

How the data were processed

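Liver RNA from 12 two-colour Agilent mouse arrays was analysed. Per the file headers, the deposited intensity values are median spot and local background signals from Agilent's Feature Extraction software, not normalized. The deposited log10 ratios of reference over sample were background-subtracted and dye-normalized by the same software and served as an alternative, and the deposited value table holds the same log10 ratios with the sign turned. The deposited flags mark outlier spots and spots well above background. The authors themselves used background-subtracted medians with quantile normalization and a Split-Factor ANOVA. No dye swap was made, so a constant dye effect cancels between groups.

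Control spots (1075) and retired spots (91) were left out of 21446. Signals were corrected with normexp (offset 50), then quantile normalization was run across 24 channels, and the log2 ratio of sample to reference was taken. Outlier spots were set to missing: 24.7% and 14.1% on fed replicates 2 and 3, at most 6.29% elsewhere. Of the members, 49 kept 3 fed values, 27 kept 2 and 7 kept 1. Probes well above background on all arrays of a group were tested, which all 83 members were, 76 of them well above background on all 12 arrays. limma 3.58.1 in R 4.3.3 was fitted with 4 groups. To pass, a probe needed a change of at least 1.4-fold and an adjusted p (Benjamini-Hochberg, across the whole array) under 0.05. An interval is the 95% interval of this fit. The fit was also run on simulated data with known changes and with noise drawn independently for each array. These data held no low-signal arrays, so the run cannot show how the fit behaves with them.

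The files carry 2 gene-name annotations. Members were taken from that in 9 of the files, with current symbols through RefSeq gene numbers. The other annotation, in 3 files, gives 59 members the same name, 12 another name and 12 none, and names 8 further probes. Spot numbers carry the same probe identifiers in all files. Probe sequences are not analysed here.

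The probes to be named were those of Dapk1, members with an unadjusted p under 0.05 against fed, the 3 largest rises and falls in each comparison with fed, 26 defining apoptosis genes (of which 22 had a probe and 1 is not reported here) and the 5 probes most like Dapk1. Bcl2l11, Pdcd6ip, Aifm1 and further probes of named genes were added after their values were seen, as were the genes named from the further list. Members, lists, named genes and alternatives were chosen with earlier results of these data known. Equal replicate numbers mark different mice and did not pair the arrays. The number of arrays and their brightness limit the precision, and p-values measure the spread between the arrays of a group. Each pool had its own array, so differences between pools and between hybridizations cannot be told apart in this spread.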

Additional observations from a re-analysis of the deposited data

How the results depend on the processing

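With all arrays, 0 members passed in each comparison under loess, the scanner's log ratios, the sample channel alone, plain background subtraction, outlier spots kept, no brightness filter, the filter on all 12 arrays, the replicate block, and each array left out in turn. Array weights gave 7, 8, 4 and 1 members at 12, 24 and 72 hours against fed and for 72 against 24 hours, and leaving out both low-signal arrays gave 3, 7, 2 and 0. Quantification day as a block gave 24, 11, 0 and 11. The share of all probes under this fit is not given here, so these counts are not read as a result about the members. For 12 and 24 hours against fed the block rests on 1 fed array and on the low-signal array of each group, the only ones that share a day. For 72 against 24 hours it rests on these arrays as well, since the 72h and 24h groups share no day.

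Dapk1's log2 fold changes at 12, 24 and 72 hours were 0.92, 1.202 and 1.45 with array weights, 1.00, 1.24 and 1.41 without the low-signal arrays, and -0.49, -0.19 and 1.43 with the day as a block. For 72 against 24 hours they were -0.17 in the sample channel alone and 1.62 with the day as a block (limma, adjusted p = 0.869 and 0.0243). With each array left out in turn they ranged from 0.22 to 1.00, 0.53 to 1.24 and 1.28 to 1.60 against fed, and from 0.17 to 0.88 for 72 against 24 hours. With array weights the 12-hour value turned to -0.74 for Tnfsf13b and to -0.52 for a Trp53 probe. With the day as a block Casp1 turned to 0.98 at 12 hours and the Trp53 probe to 1.38 at 24 hours.

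The members' median for 72 against 24 hours, -0.07 with all arrays, was -0.0085 under loess and -0.0085 with the scanner's log ratios, 0.0031 without the low-signal arrays and -0.017 with the day as a block. With single arrays left out it ranged from -0.070 to 0.0031, the latter without replicate 3 of the 24h group. At 12 hours it was 0.22 with the day as a block. Members named by either annotation or alike in both gave 0 that passed. Apart from the day as a block, which rests on few arrays at 12 and 24 hours and for 72 against 24 hours, the cause was not tested. The same replicate numbers in different groups did not deviate together (6 of 18 pairs correlated above 0.1), and the replicate block left Dapk1 at 0.49, 0.79 and 1.41.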
